A study of Caenorhabditis elegans with 18 samples.

Results

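The 10 genes described here encode parts of both TGF-beta pathways of Caenorhabditis elegans: dbl-1, lon-2, sma-6, daf-4, sma-2, sma-3 and sma-4 of the body-size pathway and daf-7, daf-1 and daf-3 of the dauer pathway, in which daf-4 also acts. They were taken by gene name from a table of 46253 genes, and all 10 were among the 16006 genes with enough counts to be tested. Their transcript levels were followed in 18 samples of whole worms by age, by exposure to the pheromone ascr#10 and by collection.

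Each pathway runs from a secreted ligand through a pair of membrane receptors to Smad proteins, which enter the nucleus and regulate transcription. DBL-1, a BMP-like ligand made largely in neurons, is bound outside the cell by the glypican LON-2, which limits its action, and signals through the type I receptor SMA-6, the type II receptor DAF-4 and the Smads SMA-2, SMA-3 and SMA-4. Loss of the ligand, a receptor or a Smad of this pathway makes worms small, loss of lon-2 makes them long, and the pathway is also known for a role in the upkeep of oocyte quality with age. DAF-7, a ligand made in a few sensory neurons, signals through the type I receptor DAF-1 and the same DAF-4, which releases growth from the block imposed by the co-Smad DAF-3, so that larvae do not become dauers. In adults DAF-7 signalling is also known to act on egg laying, fat and the pool of germline progenitors.

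The worms were N2, the standard wild-type laboratory strain, and carried no mutation or transgene. They were synchronised by starvation as first-stage larvae and grown at 20 degrees C, 30 to 50 per plate, on plates that had received either water or ascr#10, a small ascaroside molecule that males secrete as a pheromone. The ascr#10 dose was 2.2 or 1.1 fg per plate according to plate size, from a stock in ethanol diluted with water, and both kinds of plate carried the bacterial food OP50. Males and delayed or abnormal worms were removed before harvest. There were 6 groups of 3 samples: water and ascr#10 at 50 h, water and ascr#10 at 58 h of the same first collection, and water and ascr#10 at 58 h of a second collection, which the design text attributes to insufficient depth in the first. The second collection holds new worms and new sequencing, with no 50 h samples, so ages were compared within the first collection.

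First-collection samples held 25.6 M to 32.9 M counts each (1 M is 1e6 counts), and those of the second held 54.3 M to 72.3 M. Ribosomal RNA took 2.25% of the counts of replicate 2 of ascr#10 at 50 h and 0.347% to 0.982% of those of the other 17 samples. The summed level of 6 genes of male somatic tissue was at most 1.57 CPM (counts scaled to a common library size) in any sample, while 12 germline and oocyte genes summed to 7160 CPM or more. Levels below are CPM scaled with TMM factors, except where TPM, which also corrects for gene length, is named. Tests are edgeR quasi-likelihood tests with Benjamini-Hochberg adjustment over the 16006 genes and a threshold of 0.05, and "rose" and "fell" are used for genes that passed it.

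All 10 genes were expressed at low to middling levels. On the TPM scale, which allows genes to be compared with each other, sma-4 stood highest in water worms at 50 h, with 12.9 ± 0.441 TPM (SD, n = 3), and daf-7 lowest, with 2.16 ± 0.0491. Among 20070 genes with any signal in that group, the 10 genes lay above between 36.8% (daf-7) and 62.7% (sma-4) of the others. The co-Smad genes sma-4 and daf-3 (11.5 TPM) and the shared receptor gene daf-4 (10.6 TPM) led, and no neighbours among these overlapped between samples. daf-1 (7.77 TPM), sma-3 (6.77 TPM) and sma-6 (6.34 TPM) followed, each overlapping the next. lon-2 (4.57 TPM) and dbl-1 (4.40 TPM) overlapped each other, and sma-2 (3.70 TPM) lay between them and daf-7. The smallest count of any of the 10 genes in a sample was 68 reads, for daf-7.

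Age moved most of the pathway genes, and it moved the parts of the body-size pathway in different directions. Between 50 h and 58 h in water the ligand gene dbl-1 and the Smad genes sma-2, sma-3 and sma-4 fell, while the gene of the ligand's antagonist, lon-2, and that of the shared receptor, daf-4, rose. In the dauer pathway the receptor gene daf-1 rose the most of all 10, daf-3 rose and the ligand gene daf-7 fell. Of the 10 genes, 4 rose and 5 fell in water, where 37.5% and 42.4% of all tested genes did, 79.9% together. In ascr#10 worms 4 rose and 6 fell, where 37% and 43.9% of all genes did, 80.9% together. These shares are near the background, as are the 9 of 10 members whose age groups did not overlap in each exposure, beside 80.7% of all genes in water and 81.3% in ascr#10. The median log2 fold change of the 10 genes was -0.22 in water and -0.21 in ascr#10, beside medians of -0.10 and -0.13 over all tested genes.

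**Figure D1:**
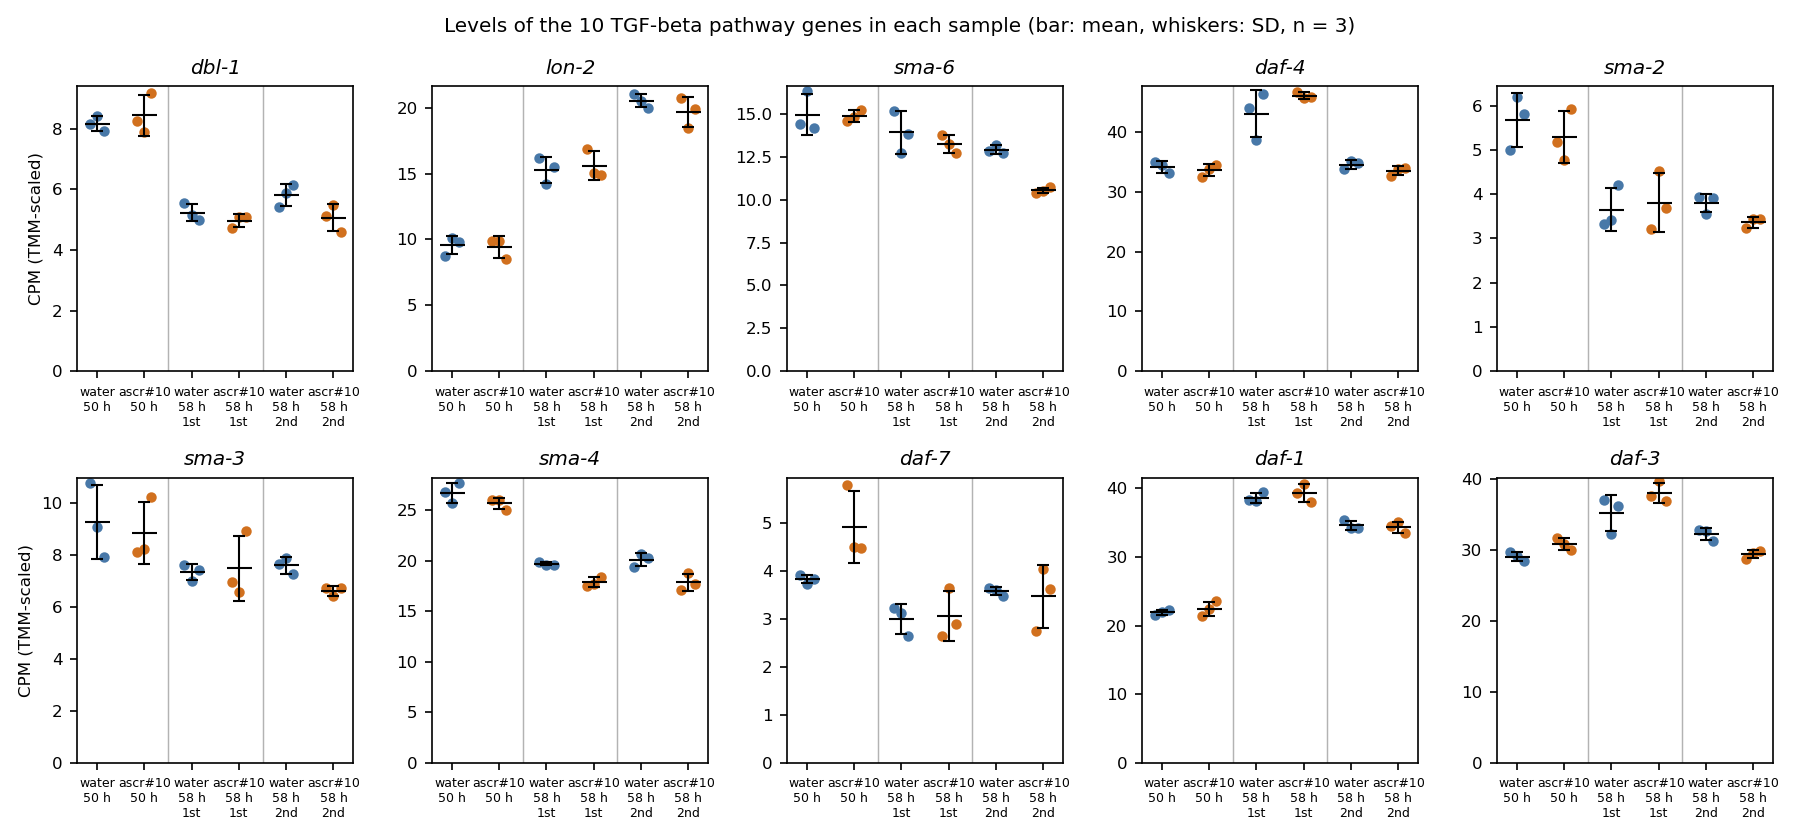
Level of each of the 10 genes in every sample, in CPM on a linear axis from 0, with 1 panel per gene and 1 column per group (water in blue, ascr#10 in orange, grey lines between 50 h, the first 58 h collection and the second). Points are samples and bars are the mean with the SD (n = 3); dbl-1, sma-2 and sma-4 drop after 50 h and stay lower in both 58 h collections, while lon-2 and daf-1 climb, daf-4 is high in the first 58 h collection alone, and daf-3 differs by collection and exposure at 58 h.

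The ligand gene dbl-1 (WBGene00000936, WBcel235 chromosome V, 6758135 to 6760418, plus strand) encodes a protein of 365 codons. In water it was at 8.14, 8.41 and 7.92 CPM in the 3 samples of 50 h and at 5.53, 5.17 and 4.99 CPM in those of 58 h. The age groups did not overlap, and the log2 fold change was -0.64 with a standard error (SE) of 0.101, or 0.641-fold (adjusted p = 1.16e-07). In ascr#10 worms dbl-1 went from 8.24, 7.89 and 9.18 CPM to 4.71, 5.10 and 5.08 CPM, again without overlap, a log2 fold change of -0.77 (SE 0.101, adjusted p = 1.12e-09). The 6 samples of the second collection at 58 h, at 4.59 to 6.14 CPM, also lay below every 50 h sample, though that collection has no 50 h samples of its own.

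The glypican gene lon-2 (WBGene00003056, chromosome X, 4738964 to 4749083, minus strand) moved the other way. Its 50 h water samples were at 8.78, 10.1 and 9.80 CPM and its 58 h water samples at 16.1, 14.2 and 15.5 CPM. That is a log2 fold change of 0.67 (SE 0.0772, adjusted p = 2.39e-11), with no overlap. In ascr#10 worms lon-2 rose by 0.73 (SE 0.0768, adjusted p = 1.40e-12), from 9.89, 9.91 and 8.50 CPM to 16.9, 15.1 and 14.8 CPM. Every 58 h sample of either collection was above every 50 h sample, and the second collection reached 18.5 to 21 CPM. That collection has no 50 h samples, and lon-2 was higher in it in CPM than in the first at 58 h, as given below.

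Because dbl-1 and lon-2 each had a single transcript with signal, their TPM can be set against each other within a sample, a ratio chosen after the values were seen. In water at 50 h the ratio of lon-2 to dbl-1 was 0.956, 1.06 and 1.10, so ligand and antagonist transcripts were near parity. At 58 h in the first collection it was 2.59, 2.43 and 2.76. The means were 1.04 ± 0.0739 and 2.59 ± 0.163 (SD, n = 3 each), and in ascr#10 worms 1.00 ± 0.157 and 2.80 ± 0.329. In the second collection the ratio was 3.14 ± 0.281 in water and 3.47 ± 0.438 in ascr#10.

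**Figure D2:**
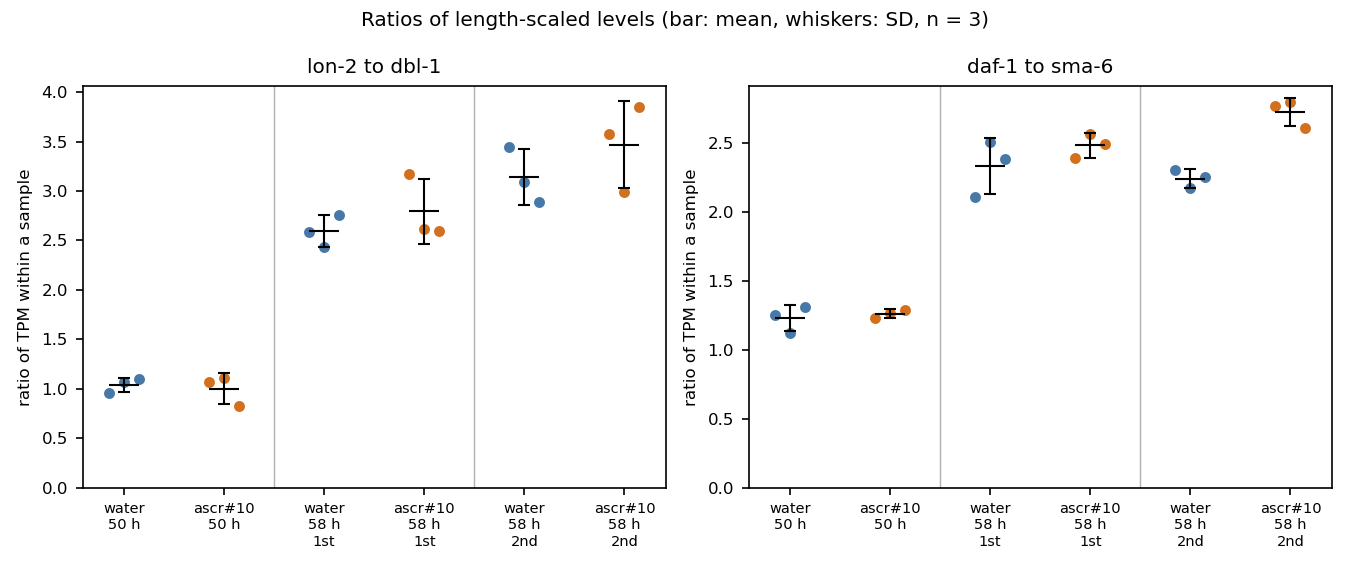
Ratio of TPM within each sample for lon-2 to dbl-1 (antagonist to ligand of the body-size pathway) and for daf-1 to sma-6 (type I receptor of the dauer pathway to that of the body-size pathway), on linear axes from 0. Points are samples and bars the mean with the SD (n = 3): lon-2 to dbl-1 goes from about parity at 50 h to between 2.43 and 3.85 at 58 h, and daf-1 to sma-6 from between 1.12 and 1.31 to between 2.11 and 2.80.

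The type I receptor genes of the pathways differed. sma-6 (WBGene00004860, chromosome II, 6324484 to 6327355, plus strand), the receptor for body size, was at 14.4, 16.3 and 14.2 CPM in water at 50 h and at 15.2, 12.7 and 13.8 CPM at 58 h. These groups overlap, and the log2 difference of -0.11 did not pass (adjusted p = 0.154, 95% interval -0.25 to 0.03). It passed without replicate 1 of 58 h (-0.18, adjusted p = 0.0346), against a range of adjusted p of 0.0107 to 0.779 over 16 settings. In ascr#10 worms sma-6 fell by 0.17 (adjusted p = 0.0291), from 14.6, 14.8 and 15.2 CPM to 13.8, 13.2 and 12.7 CPM, without overlap. That call held in 8 of 16 alternative settings, with adjusted p between 0.00403 and 0.594. It was lost without replicate 3 of the 50 h ascr#10 samples (0.0885), replicate 2 of the 58 h ascr#10 samples (0.0501) or their replicate 3 (0.0929).

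daf-1 (WBGene00000897, chromosome IV, 132416 to 138081, plus strand), the dauer-pathway type I receptor, showed the steepest rise. Water samples were at 21.6, 21.9 and 22.2 CPM at 50 h and at 38.3, 38.1 and 39.5 CPM at 58 h, 1.76-fold higher and far apart relative to their spread. The log2 fold change was 0.82 (SE 0.0479, adjusted p = 4.09e-22) in water and 0.81 (SE 0.0474, adjusted p = 4.69e-22) in ascr#10, where values went from 21.4, 22.4 and 23.5 CPM to 39.3, 40.6 and 37.97 CPM. In TPM the ratio of daf-1 to sma-6 went from 1.23 ± 0.0953 to 2.33 ± 0.202 in water. The exons of daf-1 share 108 bases with col-99 on the other strand, a gene with at most 308 counts in a sample. Whether strand was used in counting is not stated, so reads in that stretch may come from either gene.

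The shared type II receptor gene daf-4 (WBGene00000900, chromosome III, 5625135 to 5632323, plus strand) rose in the first collection, from 35.1, 34.4 and 33.1 CPM to 43.98, 38.7 and 46.5 CPM in water. In ascr#10 it went from 32.5, 33.9 and 34.6 CPM to 46.7, 45.6 and 45.9 CPM, and neither pair of groups overlapped. The log2 fold change was 0.33 (SE 0.0475, adjusted p = 1.22e-08) in water and 0.45 (SE 0.0470, adjusted p = 9.65e-13) in ascr#10. The second collection did not show such levels. Its 58 h samples, at 32.7 to 35.1 CPM, lay in the same range as the 50 h samples, so the rise was seen within the first collection and no 50 h samples of the second exist to compare.

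Among the Smad genes of the body-size pathway, the co-Smad sma-4 (WBGene00004858, chromosome III, 5816232 to 5820204, plus strand) fell with the least spread. Its water samples were at 26.8, 25.7 and 27.7 CPM at 50 h and at 19.9, 19.6 and 19.6 CPM at 58 h. The log2 fold change was -0.44 (SE 0.0558, adjusted p = 5.58e-10) in water and -0.52 (SE 0.0566, adjusted p = 4.39e-12) in ascr#10. All 12 samples of 58 h, of either collection, were below all 6 of 50 h, which are all of the first collection.

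The receptor-regulated Smad gene sma-2 (WBGene00004856, chromosome III, 8749680 to 8757089, plus strand) was at 5.004, 6.21 and 5.82 CPM in water at 50 h and at 3.33, 3.42 and 4.21 CPM at 58 h. It fell by 0.64 (SE 0.129, adjusted p = 1.19e-05) in water and by 0.49 (SE 0.128, adjusted p = 0.000545) in ascr#10. In the Ensembl annotation used for coordinates, its exons share 100 bases with aak-1 and 52 bases with ugtp-1 on the other strand. Exons of the quantified forms ZK370.2.1 and ZK370.2.2 were not found there, so the overlap of these forms was not tested. The neighbours aak-1 and ugtp-1 had up to 4747 and 2560 counts in a sample against at most 260 for sma-2. With neither the strand setting nor the overlap of the quantified forms known, the level of sma-2 is uncertain.

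sma-3 (WBGene00004857, chromosome III, 6860974 to 6863968, minus strand), the partner Smad gene of sma-2, varied more between samples. Water values were 10.7, 9.08 and 7.92 CPM at 50 h and 7.63, 6.99 and 7.40 CPM at 58 h, which do not overlap but come close. It fell by 0.33 in water (SE 0.105, adjusted p = 0.00398) and by 0.25 in ascr#10 (SE 0.105, adjusted p = 0.0283), where the groups overlap. The call in water was lost without replicate 1 of 50 h (adjusted p = 0.0667) and on the TPM scale, with adjusted p between 0.00042 and 0.0834 over 16 settings. The call in ascr#10 held in 8 of 16 settings, with adjusted p from 0.00156 to 0.375, and was lost without replicate 3 of 50 h (0.304), replicate 1 of 58 h (0.121) or replicate 2 of 58 h (0.158).

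The ligand gene of the dauer pathway, daf-7 (WBGene00000903, chromosome III, 811844 to 813773, plus strand), had the smallest count of the 10 genes in any sample. In ascr#10 worms it fell by 0.69 (SE 0.142, adjusted p = 1.86e-05), from 5.79, 4.49 and 4.47 CPM to 2.65, 3.64 and 2.89 CPM. In water it went from 3.91, 3.74 and 3.83 CPM to 3.23, 3.12 and 2.65 CPM, a log2 fold change of -0.35 (SE 0.150, adjusted p = 0.0313), and neither pair of groups overlapped. The call in ascr#10 held in all 16 alternative settings and that in water in 9 of 16, with adjusted p from 0.00772 to 0.130. In water it was lost with the size factors of DESeq2, on the TPM scale, and without replicate 1 (0.0644) or 3 (0.0517) of 50 h or replicate 3 of 58 h (0.130).

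The co-Smad gene daf-3 (WBGene00000899, chromosome X, 817922 to 825475, minus strand) rose by 0.28 in water (SE 0.0491, adjusted p = 1.48e-06), from 29.7, 29.2 and 28.4 CPM to 37.1, 32.3 and 36.2 CPM. In ascr#10 it rose by 0.30 (SE 0.0479, adjusted p = 1.41e-07). In water the rise depended on how transcript length was treated. With the deposited length-scaled counts the log2 value was -0.03 (adjusted p = 0.795) and on the log2(TPM + 1) scale 0.05 (adjusted p = 0.617), while in ascr#10 the call held in all 16 settings (adjusted p up to 0.043). In the second collection the 58 h water samples, at 31.3 to 32.8 CPM, lay above the 50 h water samples, while the 58 h ascr#10 samples, at 28.8 to 29.9 CPM, lay below those of ascr#10 at 50 h, which were at 30.1 to 31.7 CPM.

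The calls for dbl-1, lon-2, daf-1, daf-4, sma-2 and sma-4 with age held in both exposures in every one of 16 alternative settings, other scalings and the omission of any 1 replicate included. No difference between the age effects in water and in ascr#10, which is also the difference between the exposure effects at 58 h and 50 h of the first collection, passed for any of the 10 genes. Among all genes 4.74% did. None of the 10 had an unadjusted p under 0.05 there, and the widest intervals were those of daf-7 (-0.76 to 0.07) and sma-2 (-0.21 to 0.52).

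**Figure D3:**
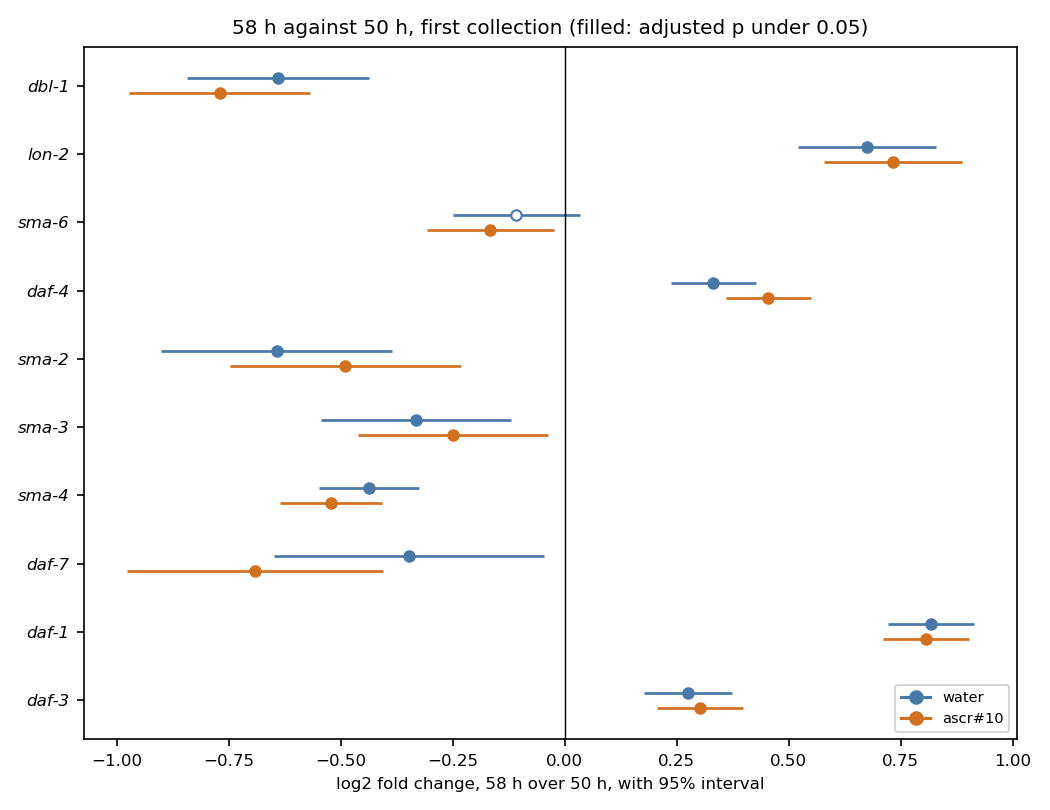
Log2 fold change of 58 h over 50 h in the first collection for each of the 10 genes, in water (blue) and in ascr#10 (orange), with 95% intervals from the edgeR fit. Filled points passed an adjusted p of 0.05: lon-2, daf-4, daf-1 and daf-3 lie above 0 and the ligand and Smad genes of body size and daf-7 below it in both exposures, with sma-6 open in water; the value of daf-3 in water turns to -0.03 with length-scaled counts.

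Marker genes of the tissues that make and receive these signals shifted in the same comparison, which does not show that the tissues themselves did. CPM from whole worms are shares of a library. Fewer cells of a type, less RNA per cell and more RNA from other tissues therefore cannot be told apart. In water, 10 of 12 neuronal genes fell with age and 2 rose, with a summed level of 453 to 466 CPM at 50 h and 406 to 419 CPM at 58 h. All 8 body wall muscle genes fell, from 9473 to 9681 CPM down to 5861 to 6148 CPM summed. Of 10 epidermal genes 6 fell, with sums of 658 to 669 CPM at 50 h and 409 to 429 CPM at 58 h. The other epidermal genes rose, did not pass or were not tested, and 42.4% of all tested genes fell in this comparison. Germline and oocyte genes went up, with 10 of 12 rising, 1 falling and sums of 7160 to 7270 CPM at 50 h and 10196 to 10491 CPM at 58 h. All 8 tested genes of the list for the zygotic embryo rose, and 37.5% of all tested genes rose in this comparison. That list shares elt-1 with the epidermal one, and 2 of its 10 genes were at 0 in all water samples of 50 h. The 7 genes listed for the ASI and ASJ sensory neurons, tax-2 and tax-4 among them, summed to between 1.58 and 2.583 CPM in all 18 samples. Of the 7, 4 could be tested. The part of these shifts in the values of the 10 genes was not tested.

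The comparison of ascr#10 with water asks whether the pheromone moved the pathways at a given age. At 50 h 0 of the 10 genes passed, where 12.9% of all genes did, and 1, daf-7, had an unadjusted p under 0.05. DESeq2 also called 0. The groups did not overlap for 2 of the 10, beside 31.5% of all genes. The median log2 difference of the 10 was -0.02, beside 0.00 over all genes. daf-7 was at 3.91, 3.74 and 3.83 CPM in water and at 5.79, 4.49 and 4.47 CPM in ascr#10, so the groups did not overlap, and replicate 1 of ascr#10 was the highest. The log2 difference was 0.36 (SE 0.135, 95% interval 0.09 to 0.63, adjusted p = 0.066). Over 17 alternative settings its adjusted p ran from 0.0407, with only these groups fitted, to 0.394, without replicate 1 of ascr#10, where the difference was 0.23. Without the ascr#10 sample rich in ribosomal RNA it was 0.42 (adjusted p = 0.0669). For daf-3 (0.09, adjusted p = 0.281) the ascr#10 samples were also all above the water samples, and for the other 8 genes the groups overlapped, with differences of -0.10 to 0.05.

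At 58 h the collections differed. In the first, 0 of the 10 genes passed, where 8.05% of all genes did, and 3 had an unadjusted p under 0.05: daf-4 (0.10, adjusted p = 0.209), daf-3 (0.11, adjusted p = 0.162) and sma-4 (-0.14, adjusted p = 0.162). DESeq2 also called 0, and the groups did not overlap for 1 of the 10, beside 22.4% of all genes. In the second, 3 of the 10 fell and 0 rose, where 16.4% of all genes fell and 15.3% rose, 31.7% together. The 3 were the receptor gene sma-6 and the co-Smad genes sma-4 and daf-3. The groups did not overlap for 5 of the 10, beside 43.1% of all genes. The median log2 difference of the 10 genes was 0.02 in the first of these collections and -0.15 in the second, beside 0.00 over all genes in both. The libraries of the second collection were the deeper ones.

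**Figure D4:**
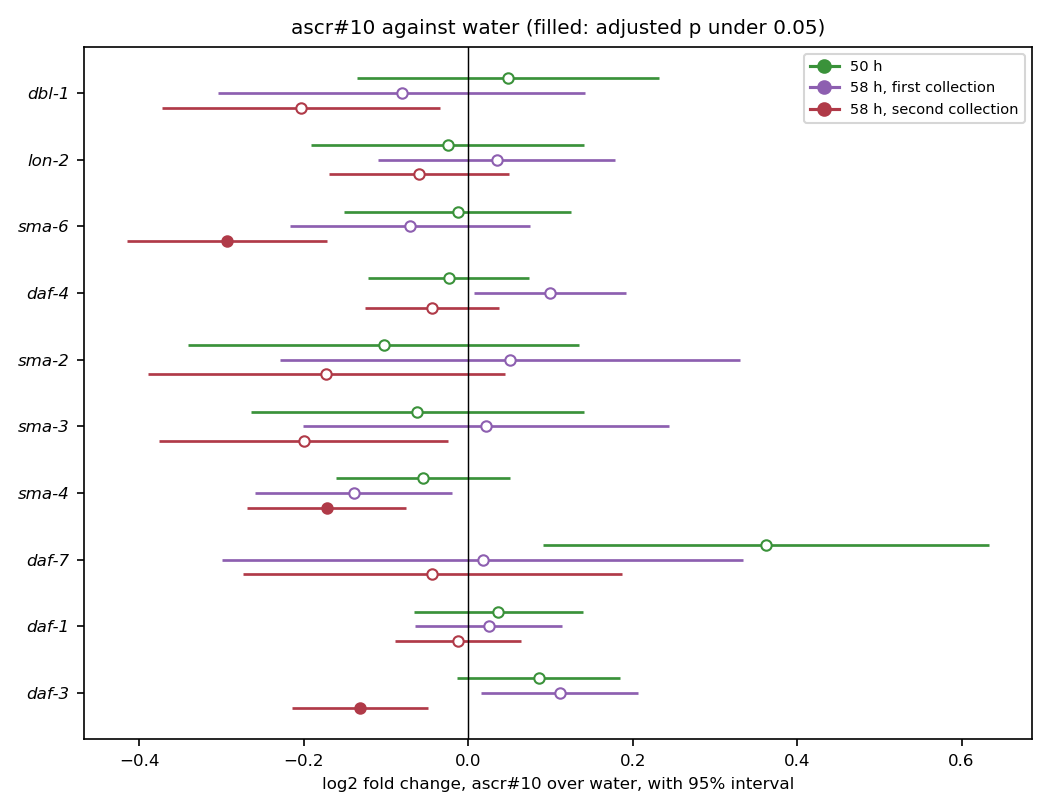
Log2 fold change of ascr#10 over water for each of the 10 genes at 50 h (green), 58 h of the first collection (purple) and 58 h of the second (red), with 95% intervals. Filled points passed an adjusted p of 0.05, which were sma-6, sma-4 and daf-3 in the second collection; daf-7 at 50 h has the largest value, with an interval of 0.09 to 0.63, and daf-3 lies on opposite sides of 0 in the collections of 58 h.

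sma-6 showed the largest change among the 10 with exposure in the second collection. Its water samples were at 12.8, 13.2 and 12.7 CPM and its ascr#10 samples at 10.4, 10.5 and 10.7 CPM, a log2 fold change of -0.29 (SE 0.0605, 0.816-fold, adjusted p = 0.000152). The groups lie well apart. In the first collection its values were 15.2, 12.7 and 13.8 CPM in water and 13.8, 13.2 and 12.7 CPM in ascr#10, which overlap (-0.07, adjusted p = 0.662). The difference between the collections, -0.22, did not pass (adjusted p = 0.127, 95% interval -0.41 to -0.03). As the mean over both collections, sma-6 was lower by 0.18 in ascr#10 (SE 0.0473, adjusted p = 0.003).

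For sma-4 the samples of ascr#10 lay below those of water in both collections, and the test passed in the second. In the first its values were 19.9, 19.6 and 19.6 CPM in water and 17.6, 17.8 and 18.4 CPM in ascr#10. In the second they were 19.4, 20.7 and 20.3 CPM and 17.2, 18.8 and 17.7 CPM, and in neither collection did the groups overlap. The log2 values were -0.14 (SE 0.0596, adjusted p = 0.162) and -0.17 (SE 0.0480, adjusted p = 0.00449), with a mean over both of -0.16 (SE 0.0383, adjusted p = 0.00171). The difference between them was -0.03, with a 95% interval of -0.19 to 0.12. In the first collection the call was made with length-scaled counts (adjusted p = 0.0146) and on the TPM scale (0.0108 with a pseudocount of 1), and over 16 settings adjusted p ran from 0.00987 to 0.349. Over the mean of both collections 2 of the 10 genes, sma-4 and sma-6, fell, where 13.7% of all genes fell and 25.5% changed, and both calls held in all 23 settings.

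daf-3 was the gene of the 10 for which the effect of ascr#10 differed between the collections. In the first its water samples were at 37.1, 32.3 and 36.2 CPM and its ascr#10 samples at 37.6, 39.7 and 36.9 CPM, which overlap. In the second, water was at 32.8, 32.7 and 31.3 CPM and ascr#10 at 28.8, 29.7 and 29.9 CPM, which do not. The fall in the second collection was 0.912-fold (log2 -0.13, SE 0.0411, adjusted p = 0.0108), and the difference of the log2 effects was -0.24 (SE 0.0630, adjusted p = 0.00576), where 11.1% of all genes differed and 6.8% had a lower effect in the second. The fall was lost without replicate 1 of second-collection water (adjusted p = 0.0533), with length-scaled counts (0.570) and on the TPM scale (0.548 with a pseudocount of 1 and 0.532 with 0.1). Over 16 settings its adjusted p ran from 0.00399 to 0.570. The difference was lost without replicate 2 of first-collection water (-0.19, adjusted p = 0.0507), with length-scaled counts (0.216) and on the TPM scale (0.253 with a pseudocount of 1 and 0.252 with 0.1). Its adjusted p ran from 0.000162 to 0.253 over 22 settings.

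Of the other 7 genes in the second collection, dbl-1 was at -0.20 (adjusted p = 0.0573, 95% interval -0.37 to -0.03) and sma-3 at -0.20 (adjusted p = 0.0743, interval -0.38 to -0.02). dbl-1 was at 5.41, 5.89 and 6.14 CPM in water and at 5.13, 5.47 and 4.59 CPM in ascr#10, which overlap. Its value passed in 3 of 16 settings, without replicate 1 of water (0.0383) or replicate 2 of ascr#10 (0.032) among them. sma-3 and sma-2 (-0.17, adjusted p = 0.228) had all their ascr#10 samples below the water samples. lon-2, daf-4, daf-1 and daf-7 lay between -0.06 and -0.01, with overlapping groups, and the interval of daf-1, the narrowest, was -0.09 to 0.06. In the first collection daf-4 passed without replicate 3 of water (0.16, adjusted p = 0.0436), one of its higher samples at 46.5 CPM, against a range of adjusted p from 0.0336 to 0.808 over 16 settings. Its difference between the collections, -0.14 (adjusted p = 0.132), passed without the same replicate (-0.20, adjusted p = 0.0351).

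The tissue markers also moved with exposure in the second collection, where 16.4% of all tested genes were lower in ascr#10 and 15.3% higher. There, 8 of 8 body wall muscle genes were lower in ascr#10, with sums of 5167 to 5433 CPM in water and 4305 to 4464 CPM in ascr#10. Of 4 pharyngeal muscle genes 3 were lower, with sums of 201 to 211 CPM in water and 113 to 133 CPM in ascr#10. Of 7 intestinal genes 5 were lower, with sums of 1035 to 1063 CPM and 948 to 970 CPM, and of 8 sperm genes 5, with sums of 46.4 to 46.7 CPM and 40.7 to 42.7 CPM. Of 12 neuronal genes 6 were lower, with sums of 366 to 376 CPM in water and 336 to 360 CPM in ascr#10. In these lists the genes not counted as lower were higher, did not pass or were not tested. Of 12 germline and oocyte genes 11 were higher, with sums of 10691 to 10804 CPM and 11679 to 11836 CPM. In the first collection 8.05% of all tested genes passed. Of the lists, 0 of 12 neuronal and 0 of 12 germline genes passed there, with 0 of either list at an unadjusted p under 0.05. Other lists did move there: 4 of 8 sperm genes were lower in ascr#10, with sums of 45.6 to 45.9 CPM in water and 35.2 to 37.8 CPM in ascr#10, and 2 of 7 intestinal genes were higher, with sums of 802 to 835 CPM and 871 to 882 CPM. Pharyngeal muscle sums were 300 to 319 CPM and 270 to 295 CPM, with 0 of 4 genes passing and 2 at an unadjusted p under 0.05, and 2 of 8 body wall muscle genes were lower. Epidermal sums overlapped in both collections, at 358 to 366 CPM in water and 346 to 366 CPM in ascr#10 in the second. The part of these shifts in the values of sma-6, sma-4 and daf-3 was not tested.

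Collection itself changed some of the genes at 58 h. Of the 10 genes 1 rose and 3 fell in the second against the first collection in water, where 30.8% of all genes rose and 27.3% fell, 58.1% together. In ascr#10 1 rose and 4 fell, where 30.2% rose and 25.4% fell, 55.5% together. lon-2 rose by 0.42 in water and by 0.33 in ascr#10 (adjusted p = 6.47e-08 and 1.04e-05, edgeR as before). daf-4 fell by 0.32 and 0.46 (9.96e-09 and 1.60e-13), daf-1 by 0.16 and 0.20 (0.000889 and 5.61e-05) and daf-3 by 0.13 and 0.37 (0.0134 and 3.00e-10). The fall of daf-3 in water was lost without first-collection water replicate 1 (0.174) or 3 (0.0939) or second-collection water replicate 3 (0.0859). With length-scaled counts daf-3 instead passed as higher in water (0.34, adjusted p = 0.00609) and was at 0.05 in ascr#10 (0.661), so its direction between collections depends on how transcript length is treated. sma-6 fell by 0.33 in ascr#10 (3.60e-05) and was at -0.11 in water (0.158). On the TPM scale the median of all genes shifted to -0.15 in both exposures, from 0.01 and 0.02 in CPM. There lon-2 was at 0.14 and 0.05 and no longer passed (adjusted p = 0.0941 and 0.576), and daf-3 was at 0.08 in water (0.489) and -0.19 in ascr#10 (0.0835), which did not pass. Other values moved down on that scale, as the median of all genes did. With limma on log2(TPM + 1), sma-6 passed in water (-0.32, adjusted p = 0.000238). In ascr#10 sma-2 (-0.35, 0.00632) and sma-3 (-0.37, 0.0064) passed there. dbl-1 turned from 0.03 in CPM to -0.18 in ascr#10 (limma adjusted p = 0.029), near the median of -0.15 over all genes. daf-1 was at -0.40 and -0.44 and daf-4 at -0.54 and -0.69 in water and ascr#10. Worms, libraries and sequencing all changed between the collections and cannot be told apart.

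Values per transcript were deposited for daf-3 as well. salmon divided its expression over 8 transcripts with any signal, whose estimated shares varied widely between samples of a group. F25E2.5i.1, a short form of 6 exons and 849 coding bases against up to 15 exons and 2685 coding bases for others, took 37.9%, 39.9% and 38.6% of daf-3 TPM in water at 50 h. At 58 h of the first collection it took 0%, 39.6% and 0% in water and 28.8%, 37.9% and 0% in ascr#10. In the second it took 45.0% to 59.4% in all 6 samples. TPM and length-scaled counts use transcript lengths, and rounded counts do not; the part of these shares in the values of daf-3 was not tested.

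**Figure D5:**
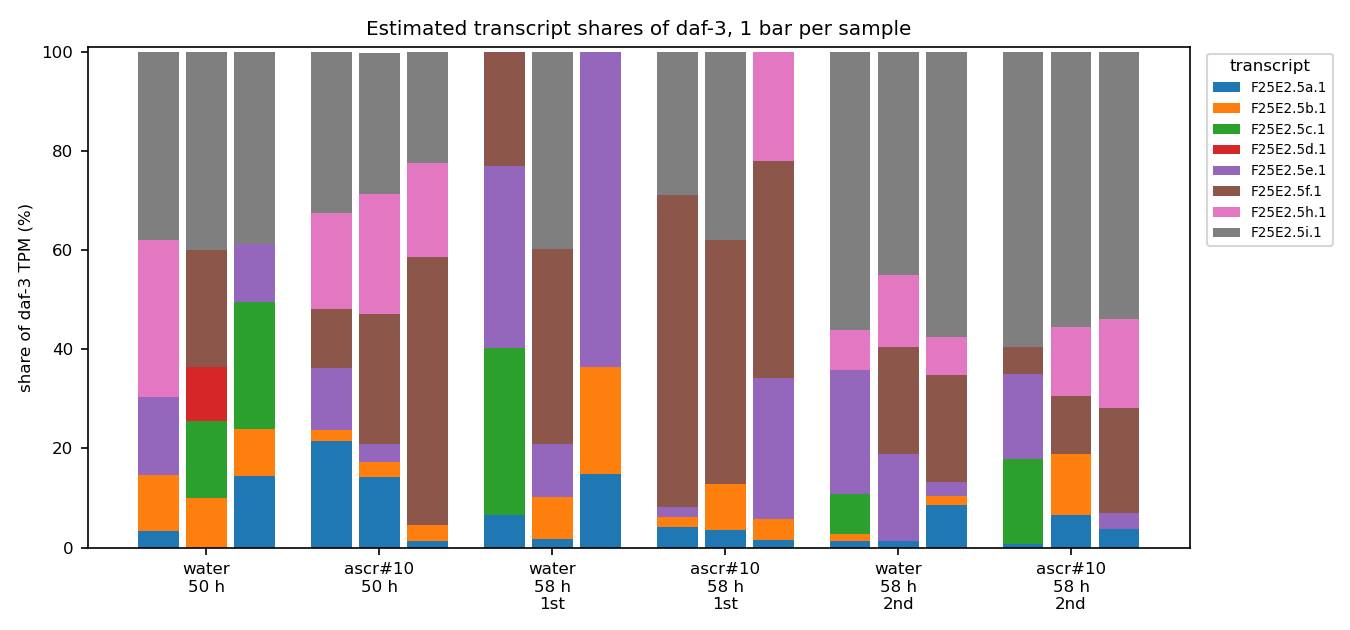
Share of daf-3 TPM (%, stacked to 100) that salmon assigned to each transcript, 1 bar per sample with replicates 1 to 3 from left to right in each group. The short transcript F25E2.5i.1 (grey) is at 0% in 3 of the 6 first-collection samples of 58 h and at 45.0% to 59.4% in the second collection, and the longer forms vary between samples of a group.

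For sma-4 a short form of 5 exons and 567 coding bases, R12B2.1b.1, was at 0% in 11 of the 12 first-collection samples, at 19.2% in replicate 3 of water at 58 h, and at 21.6% to 29.2% in the second collection. Its log2 change between collections went from 0.03 to 0.25 in water and from 0.00 to 0.25 in ascr#10 with length-scaled counts. For sma-2 the assignment to its forms ZK370.2.1 and ZK370.2.2 ran from 0% to 100% between samples, so it is not interpreted. daf-4 kept 78.1% to 97.8% in its main form C05D2.1a.2, and dbl-1, lon-2, sma-3, sma-6 and daf-7 had a single transcript with signal.

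Other genes of these pathways, from lists drawn up with earlier results known, show how the 10 sit among them. Of 14 further genes of body-size signalling, 5 rose and 5 fell with age in water, with a median of -0.08, beside 37.5% and 42.4% of all genes and a median of -0.10. In ascr#10 5 rose and 6 fell, with a median of -0.30, beside 37% and 43.9% of all genes and a median of -0.13. The tetraspanin gene tsp-14 fell by 1.67, while another tetraspanin, tsp-21, rose by 0.95 and sup-17, an ADAM10 protease gene, by 0.85. Of 9 further dauer-pathway genes 3 rose and 2 fell in water, with a median of -0.06, and 3 rose and 4 fell in ascr#10, with a median of 0.01. bra-1, whose product binds DAF-1, rose by 1.253 from 2.47 ± 0.253 to 5.93 ± 0.298 CPM (SD, n = 3 each). The receptor-regulated Smad gene daf-8 rose by 0.62, pdp-1, a phosphatase gene, by 0.51, and daf-5, whose product is the partner of DAF-3, fell by 0.44. Thus daf-3 and daf-5 had opposite signs with age in CPM, subject to the length dependence of daf-3 given above.

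All 3 other TGF-beta ligand genes tested fell with age in water, tig-3 by 0.96, tig-2 by 0.60 and unc-129 by 0.29, and 2 of them, tig-2 and unc-129, fell in ascr#10. Of all tested genes 42.4% fell and 37.5% rose in water, and 43.9% fell and 37% rose in ascr#10. In the dafachronic acid arm, the steroid hormone system downstream of DAF-7, 5 of 6 tested genes fell and 1 rose in water, with a median of -0.53, and 3 fell and 1 rose in ascr#10, with a median of -0.30. daf-9, the P450 that makes the hormone, fell by 1.68, dhs-16 by 0.97 (from few reads) and the co-repressor gene din-1 rose by 0.55. Of 8 genes known as DBL-1 targets, which share lon-1 and mab-21 with the first list, 5 fell and 1 rose in water, and 6 fell and 2 rose in ascr#10. The shares of all genes given above apply here too, and whether these targets followed dbl-1 was not tested. The cuticle collagen genes rol-6 and lon-3 went from 22.8 ± 0.940 and 11.2 ± 0.494 CPM to 0.187 ± 0.0640 and 0.0591 ± 0.102 CPM, and col-141 fell by 2.33. lon-1, which the pathway represses, rose by 0.44. Collagen genes can share reads with near-identical copies, so single members are uncertain.

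With exposure, lon-1 rose at 50 h and in the first collection of 58 h. It was at 15.2 ± 0.282 CPM in water and 18.9 ± 0.806 CPM in ascr#10 at 50 h (log2 0.32, SE 0.0588, adjusted p = 6.42e-05). In the first collection at 58 h it was at 20.6 ± 0.761 and 27.4 ± 1.32 CPM (0.42, SE 0.0540, adjusted p = 5.52e-08). In the second it was at 40.5 ± 1.15 and 38.6 ± 1.26 CPM (-0.07, adjusted p = 0.197). The collections differed by -0.48 (adjusted p = 2.45e-07). Its repressor pathway's ligand gene dbl-1 stood at 0.05, -0.08 and -0.20 in the same comparisons, with none of these passing.

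Of the 14 further body-size genes 1 rose at 50 h, 1 rose and 2 fell at 58 h in the first collection, and 3 rose and 4 fell in the second. Among all tested genes 12.9%, 8.05% and 31.7% passed in these comparisons. kin-29, a salt-inducible kinase gene, was lower in ascr#10 in both collections of 58 h, by 0.26 and 0.22 (adjusted p = 0.00412 and 0.00102). sma-10, whose product acts at the receptors, was lower by 0.20 and 0.28 (adjusted p = 0.00403 and 2.03e-06). In the second collection adt-2 fell by 0.19 and crm-1 by 0.13, while sup-17, tsp-12 and unc-40 rose by 0.13, 0.10 and 0.09. The medians of this list were 0.02, -0.01 and -0.07 in the 3 comparisons.

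Of the 9 further dauer-pathway genes 0 passed at 50 h, where 12.9% of all genes did, with 1 at an unadjusted p under 0.05. daf-5 fell by 0.13 in the first collection (adjusted p = 0.0365) and was at 0.08 in the second (0.0937), a difference of 0.21 (adjusted p = 0.00679). In the second collection daf-14, a Smad gene, fell by 0.23 (adjusted p = 0.00167) and pdp-1 rose by 0.08 (0.015). Of the ligand genes tig-3 fell by 0.71 at 50 h (2.61 ± 0.418 to 1.58 ± 0.303 CPM, adjusted p = 0.00854). None of the 3 passed at 58 h in either collection, where 8.05% and 31.7% of all genes did, with none at an unadjusted p under 0.05. As the mean of both, tig-2 was at -0.20 (adjusted p = 0.0806) and unc-129 at -0.17 (0.132), each with an unadjusted p under 0.05, and the median of the 3 was -0.18.

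In the dafachronic acid arm daf-36, which makes a hormone precursor, rose by 0.35 at 50 h (adjusted p = 0.00622) and fell by 0.18 in the second collection (0.0369). strm-1, a sterol methyltransferase gene, fell by 0.44 at 50 h (0.0368) and by 0.36 in the second collection (0.0308), and daf-12, the hormone receptor gene, fell by 0.13 there (0.0498). Among the DBL-1 targets the collagen gene col-142 rose by 0.28 at 50 h (adjusted p = 3.37e-15) and fell by 0.22 in the second collection (1.32e-11). rol-6 and col-41 passed as lower in ascr#10 at 58 h of the first collection from very few reads, with 3 to 6 against 0 to 1 counts for rol-6 and 3 to 8 against 0 for col-41, near or under the floor of 3 counts, so no fold is given.

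Over the 18 samples, the genes whose log2 CPM followed each member most closely were found among 16005 others by Pearson's r, as a description in which age is shared by every pair. C35E7.5 and rad-26 followed daf-1, with r of 0.996 each. lem-3 (0.988) and C47G2.4 (0.986) followed lon-2, and T16G12.7 (0.986) and Y73F4A.2 (0.984) followed sma-4. For dbl-1 they were wrk-1 (0.982) and C06B8.2 (0.980), and for daf-4 let-765 (0.976) and plx-1 (0.969). plx-1 (0.925) was also near daf-3, after C36B1.9 (0.944). Those of sma-6 were pqn-25 (0.951) and pmp-4 (0.943), of sma-2 W06H8.4 (0.940) and K07F5.6 (0.939), of sma-3 nlp-42 (0.877) and F40F9.10 (0.864), and of daf-7 Y38E10A.14 (0.867) and C42D4.2 (0.864).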

How the data were processed

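Per the labels' protocols, total RNA from whole worms was made into directional libraries. Per the file headers and names, the authors deposited salmon output summed per gene as estimated counts, as length-scaled estimated counts and as TPM, and TPM per transcript. For build, annotation and strand setting, the sources used here give nothing. Deposited estimated counts, 95.2% of them whole, were rounded. filterByExpr (minimum count 10), TMM scaling and quasi-likelihood tests with robust dispersion (biological coefficient of variation 2.86%) were run in edgeR 4.0.16 (R 4.3.3) on all 18 samples with 6 group means, and p-values were Benjamini-Hochberg adjusted over 16006 genes. DESeq2 1.42.0 and limma 3.58.1 served as alternatives, and the edgeR step was tested on simulated data. The labels call samples independent. One characteristic gives 58 h for all samples. Titles and descriptions, which give 50 h for 6, were used. Coordinates come from Ensembl release 115 of WBcel235, which held 46167 of 46253 identifiers. The members and gene lists were chosen with earlier results of these data known, and the ratio pairs after the values were seen. Named were all members, each list gene passing with exposure, the 3 largest per list with age in water (further ones were added after their values were seen), and the 2 genes most correlated with each member.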

Additional observations from a re-analysis of the deposited data

Results flagged for a closer look

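The effect of ascr#10 on daf-3, the co-Smad gene of the dauer pathway, differed between the collections of 58 h by -0.2433 on the log2 scale (second minus first, edgeR adjusted p = 0.00576). It was drawn out by a test of the difference itself. The effect was 0.11 in the earlier collection and -0.13 in the later. The transcript shares of daf-3 and the tissue marker sums differ between the collections as given above, and their part in it was not tested.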

How the results depend on the processing

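The count of members passing was within 1.5 times the reported one in every alternative for age, for collection, for the second collection and for the mean of both. At 50 h it was 0 and became 1 with only the compared groups fitted. In the first collection at 58 h it was 0 and became 2 without a count filter, 1 with length-scaled counts and 1 with limma on log2(TPM + 1) or log2(TPM + 0.1), and ranged from 0 to 1 when 1 replicate was left out. For the difference between collections it was 1 and became 2 without the filter, 0 with length-scaled counts and 0 with either TPM scale, and ranged from 0 to 2 with 1 replicate left out. Of single genes, daf-3 turned to -0.0293 for age in water and 0.0547 for collection in ascr#10 with length-scaled counts. For collection in water it turned to 0.3432 with length-scaled counts, which passed (edgeR adjusted p = 0.00609), and to 0.0771 and 0.0829 on the TPM scales. dbl-1 turned to -0.1814 and -0.2439 for collection in ascr#10 on the TPM scales, and sma-4 to 0.2456 there with length-scaled counts; the cause was not tested. Of the gene values under an alternative, 1723 kept their side of the threshold, 45 lost and 24 gained a call, and 8 turned; among the first, some values that did not pass either way changed sign. Over all genes, 1306 passed at 50 h in the joint fit with 1 effect at 58 h against 2065, 2277 in the first collection without a filter against 1289, 2279 and 2428 in the second on the TPM scales against 5067, and 2379 and 2596 for the mean of both against 4083. A replicate block changed no call: daf-7 at 50 h was at 0.3638 with it (edgeR adjusted p = 0.0607) and 0.3624 without. Residuals of samples with the same number correlated at -0.05 to 0.03, and those of samples with different numbers at -0.05 to 0.06. No shared effect of the replicate number was seen, though so few samples per group cannot exclude pairing. daf-7 had 68 to 254 reads a sample, with the smallest count of the 10 genes, though sma-2 had fewer reads than daf-7 in some samples. No limit of detection was computed.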
